A study of Mus musculus with 24 samples.

Results

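The late light phase of the mouse heart was described here as the step from ZT07 to ZT11, the zeitgeber times 7 h and 11 h after lights-on. The step compares 8 arrays, 4 hearts labelled ZT11 and 4 labelled ZT07, chosen by their titles out of 24 arrays that cover 6 times of a single day at intervals of 4 h. Every heart came from a wild-type male C57Bl/6 mouse, 8 weeks old, kept in a normal light-dark environment (12:12) and given no treatment that the labels name. The tissue is labelled myocardium and the titles speak of hearts, RNA was hybridised to Affymetrix mouse arrays, and the labels call the 4 arrays of a time biological replicates. A bulk sample of this kind holds muscle, vessel, connective tissue and blood cells together, and fewer cells of a type cannot be told apart from less RNA per cell. The labels name no processing batch, and a batch shared by the 4 arrays of a time cannot be told apart from the time itself.

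The circadian clock of heart cells is a loop of transcription. CLOCK and BMAL1 (the product of Arntl) bind E-box motifs and switch on the Per and Cry genes, Ciart, Nr1d1 and the D-box factor gene Dbp, and PER, CRY and CIART proteins later shut that activity down. NR1D1, the nuclear receptor REV-ERBα, in turn represses Arntl, Clock and Cry1 through ROR elements, while DBP, TEF and HLF activate genes that carry D-boxes and NFIL3 represses them. In the heart this loop times genes of fuel use, ion channels and growth. Mice rest in the light, and the hours before lights-off lead into their active phase and the daily rise of corticosterone.

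Shown are 6 promoters that hold an E-box or a D-box, from clock genes and the genes with the largest changes, called genes only. These are the motifs through which the loop acts, so that their letters can be read beside the changes given further on. The promoters were taken by size of change up to a limit of 6, so Lingo3, whose promoter also holds an E-box, is not shown. Clock genes that were not called were left out whether or not they hold a motif. Each line gives the 250 bases before the RefSeq start of a gene in the build GRCm38.p6, 5′ to 3′ on the gene's own strand, with the motif in capitals. The motifs searched were the E-box CACGTG, which reads the same on both strands, the D-box TTATGTAA or TTATGCAA on either strand, and the ROR element core TAGGTCA on either strand.
Ciart: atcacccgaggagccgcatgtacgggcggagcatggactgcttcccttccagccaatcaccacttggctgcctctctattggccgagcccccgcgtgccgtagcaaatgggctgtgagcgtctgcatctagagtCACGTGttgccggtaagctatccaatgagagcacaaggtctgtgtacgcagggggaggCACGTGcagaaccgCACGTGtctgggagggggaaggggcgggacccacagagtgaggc
Cry1: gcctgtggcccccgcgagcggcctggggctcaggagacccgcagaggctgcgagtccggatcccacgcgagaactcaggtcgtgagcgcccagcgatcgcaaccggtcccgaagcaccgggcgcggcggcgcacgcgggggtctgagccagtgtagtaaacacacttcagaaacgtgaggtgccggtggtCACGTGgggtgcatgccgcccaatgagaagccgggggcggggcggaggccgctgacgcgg
Rhobtb1: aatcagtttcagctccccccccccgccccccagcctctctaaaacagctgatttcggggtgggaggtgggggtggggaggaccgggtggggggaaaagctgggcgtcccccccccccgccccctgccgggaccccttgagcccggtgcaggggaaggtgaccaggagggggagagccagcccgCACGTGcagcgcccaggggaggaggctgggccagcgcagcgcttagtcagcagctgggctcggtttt
Slc41a3: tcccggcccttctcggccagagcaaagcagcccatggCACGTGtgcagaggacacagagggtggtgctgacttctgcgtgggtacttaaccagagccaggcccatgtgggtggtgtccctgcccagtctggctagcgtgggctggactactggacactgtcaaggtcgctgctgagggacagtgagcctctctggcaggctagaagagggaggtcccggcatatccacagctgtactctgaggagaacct
Rcan1: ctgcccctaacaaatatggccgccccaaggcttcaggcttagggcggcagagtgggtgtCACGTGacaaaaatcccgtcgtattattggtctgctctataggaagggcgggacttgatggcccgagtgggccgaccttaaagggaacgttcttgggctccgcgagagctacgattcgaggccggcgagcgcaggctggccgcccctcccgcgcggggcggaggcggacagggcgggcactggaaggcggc
Per3: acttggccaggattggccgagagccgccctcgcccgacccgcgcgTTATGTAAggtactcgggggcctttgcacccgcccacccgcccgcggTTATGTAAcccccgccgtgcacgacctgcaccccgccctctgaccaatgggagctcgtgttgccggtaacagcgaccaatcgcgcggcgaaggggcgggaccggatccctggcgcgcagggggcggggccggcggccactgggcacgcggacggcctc
Ciart (chr3:95882229-95882478, minus strand) holds an E-box at 116, 58 and 44 bases before its start, and its RNA rose from ZT07 to ZT11. Cry1 (chr10:85185055-85185304, minus strand) holds 1 at 60 bases and Rhobtb1 (chr10:69212407-69212656, plus strand) 1 at 67 bases, and both rose as well. The E-boxes of Slc41a3 (chr6:90618996-90619245, plus strand, 213 bases before the start) and Rcan1 (chr16:92466170-92466419, minus strand, 191 bases) stand before genes that fell. Per3 (chr4:151044666-151044915, minus strand), which rose, holds a D-box at 205 and at 158 bases and no E-box in this window. An E-box was found in 11.4% of the 44 promoters of genes called higher at ZT11 and in 12.0% of the 25 promoters of genes called lower. The same motif stood in 6.02% of all 32851 promoters in the table and in 6.84% of the 20520 promoters of measured genes. Promoters were matched for 50 of the 69 called genes, none of which held the ROR core in this window. The ROR core stood in 2.23% of all promoters and in 2.04% of those of measured genes, shares at which sets of this size hold few or none. A D-box stood in 2.27% of the 44 promoters and in 0% of the 25. Its share was 1.5% of all promoters and 1.51% of those of measured genes. A match is a description of letters, not a bound site.

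From ZT07 to ZT11 few genes passed the test for a change in the heart's RNA, and most of these changes were modest. Of 22180 genes, 69 (0.311%) passed an adjusted p of 0.05 (limma's moderated test, Benjamini-Hochberg over all genes), 46 higher at ZT11 (0.207%) and 23 lower (0.104%). The 46 genes that rose include the clock repressors Ciart, Per3 and Cry1, the cell cycle kinase gene Wee1 and the matrix inhibitor Timp3. They also include Herpud1 of the endoplasmic reticulum and 4 genes of a list of glucocorticoid-responsive genes. The 23 that fell include the clock activators Arntl and Clock, the repressor Nr1d1, Rrad, Ankrd23, Vegfa and its receptor gene Kdr. The median size of the change was 1.40-fold among the genes that rose and 1.35-fold among those that fell, and 2 genes, Zbtb16 and Rrad, passed 2-fold. Values are on a log2 scale (base 2 assumed) and were centred, probe set by probe set, at the median of the 24 arrays, so a value of 0 is a gene's middle over the day and levels of different genes cannot be compared. Over all genes the median difference was -0.002 and the middle 90% lay between -0.135 and 0.141.

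The 4 arrays of ZT11 and the 4 of ZT07 did not overlap for 68 of the 69 called genes, Ccn1 being the exception, against 933 (4.21%) of all genes; the call used the same values, so nothing is read from this. At an unadjusted p of 0.05, 772 genes (3.48%) were higher and 812 (3.66%) lower. The count of 69 depends on the arrays: it was 40 without ZT11 replicate 4, between 47 and 82 without any other single array, and 29 in a fit of the 8 arrays alone, 22 of them shared with the 69. Array ZT07 replicate 4 spread more widely over all probe sets (SD 0.153) than the other 3 arrays of its time (0.103 to 0.112), and without it and the other 2 widest arrays of the series the count was 99, with 54 higher and 45 lower. Of the 65 named genes among the 69, 31 kept their call without any single array, 21 in the fit of the 8 arrays alone, 54 without the 3 widest arrays and 15 under every alternative tried. The plot of all genes tested shows where these stand.

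**Figure D1:**
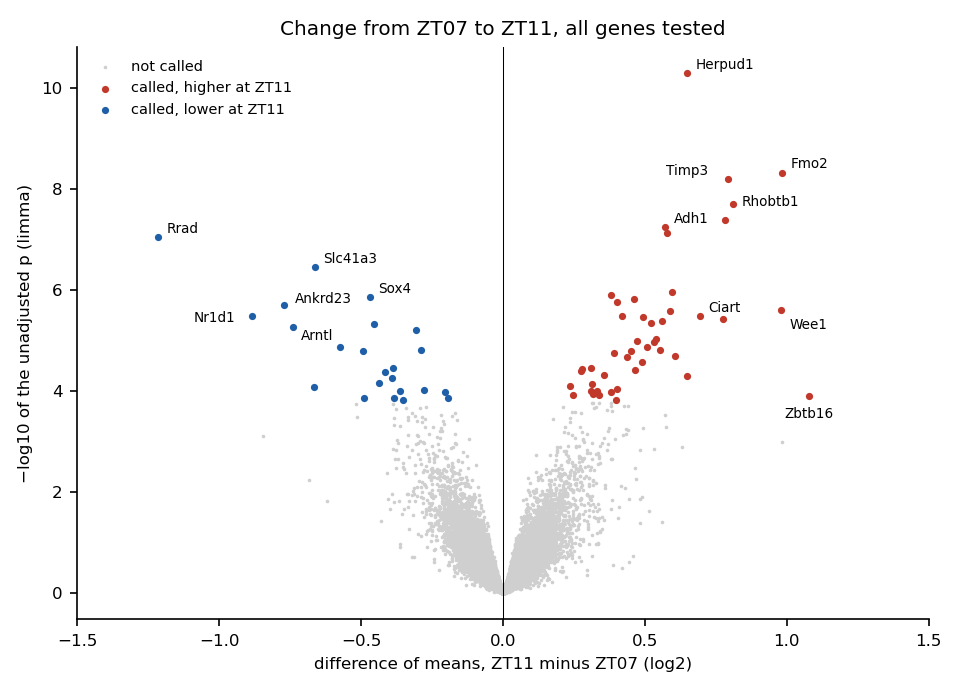
Each point is 1 of 22180 genes, with the difference of means ZT11 minus ZT07 (log2) across and −log10 of limma's unadjusted p upward; red points are the 46 genes called higher at ZT11, blue points the 23 called lower and grey points the rest. Herpud1 stands highest with a difference of 0.65, and Rrad lies farthest left at -1.22.

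Among the clock activators, 0 of 6 measured genes were called higher and 2, Arntl and Clock, lower, against 0.207% and 0.104% of all genes. The list's median difference was -0.15. Arntl, which encodes BMAL1, read -0.10, -0.16, -0.57 and -0.75 in replicates 1 to 4 at ZT07 and -1.24, -1.01, -1.30 and -0.98 at ZT11. All 4 ZT11 hearts lay below all ZT07 hearts, and ZT07 replicates 3 and 4 stood nearer to them than replicates 1 and 2 did. The difference was -0.74 (SE 0.12), or 1.67-fold, at an adjusted p of 0.0047. Clock read -0.015, 0.24, -0.052 and -0.17 at ZT07 and -0.39, -0.48, -0.40 and -0.54 at ZT11, again without overlap, and fell by 0.45 (SE 0.075, adjusted p 0.0043). Npas2, which can stand in for CLOCK, read 0.13, 0.075, -0.15 and -0.22 at ZT07 and -0.25, -0.47, -0.39 and -0.18 at ZT11 and did not pass (-0.28, SE 0.12, adjusted p 0.62). Its ZT11 replicate 4 overlapped with ZT07. Rora, an activator through ROR elements, differed by 0.11 (SE 0.07), Arntl2, a BMAL paralogue, by 0.024 (SE 0.066) and Rorb by -0.023 (SE 0.06), with adjusted p-values of 0.85, 0.99 and 0.99. The calls of Arntl and Clock were kept without any single array, and were lost in the fit of the 8 arrays alone (adjusted p 0.2 and 0.15). Why they were lost there was not tested.

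The repressors did not all move one way: 3 of 11 measured genes, Ciart, Per3 and Cry1, were called higher and Nr1d1 lower. Of all genes, 0.207% were called higher and 0.104% lower. The list's median was 0.17, and 0.078 after quantile normalization. Ciart, whose protein represses CLOCK and BMAL1 and whose promoter holds 3 of the E-boxes shown, read 0.40, 0.13, 0.47 and 0.74 at ZT07 and 0.98, 1.10, 1.24 and 1.19 at ZT11. The groups did not overlap, and ZT07 replicate 4 was the nearest to ZT11. It rose by 0.69 (SE 0.11), or 1.62-fold, at an adjusted p of 0.0037. Per3, the period gene with the D-boxes shown, read 0.25, 0.18, 0.16 and 0.65 at ZT07 and 0.80, 1.03, 0.85 and 0.79 at ZT11, with ZT07 replicate 4 well above the other 3. Its rise was 0.56 (SE 0.091) at an adjusted p of 0.004. Cry1, a cryptochrome that binds CLOCK and BMAL1, read -0.59, -0.65, -0.68 and -0.61 at ZT07 and -0.14, -0.26, -0.094 and -0.058 at ZT11, so that it stood below its middle of the day in all 8 hearts while rising by 0.49 (SE 0.08, adjusted p 0.0037). Nr1d1 went the other way: it read 1.31, 1.26, 1.12 and 0.89 at ZT07 and 0.13, 0.32, 0.38 and 0.21 at ZT11, above its middle in all 8 hearts. All ZT11 values lay below all ZT07 values, and it fell by 0.88 (SE 0.14), or 1.85-fold, at an adjusted p of 0.0037. In the fit of the 8 arrays alone Cry1 and Nr1d1 kept their calls, and Per3 and Ciart lost theirs (adjusted p 0.19 and 0.11).

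Per1, the period gene that also responds to light and glucocorticoids, did not pass although its mean difference equalled that of Per3. It read 0.19, 0.23, 0.77 and 1.10 at ZT07 and 0.90, 1.09, 1.22 and 1.33 at ZT11. ZT07 replicates 3 and 4 lay well above replicates 1 and 2, and replicate 4 overlapped with ZT11, which left 0.56 (SE 0.26) at an adjusted p of 0.66. Cry2 read -0.072, -0.14, 0.011 and 0.15 at ZT07 and 0.24, 0.21, 0.39 and 0.43 at ZT11 without overlap, and its difference of 0.33 (SE 0.092) did not pass either (adjusted p 0.2). Nr1d2, the paralogue of Nr1d1, had a difference of 0.17 (SE 0.11, adjusted p 0.84); the difference between these paralogues was not tested. Bhlhe40 and Bhlhe41, which encode DEC repressors of E-box genes, differed by -0.25 (SE 0.11) and 0.13 (SE 0.11), with adjusted p-values of 0.61 and 0.91. Csnk1e, a kinase gene for PER proteins, and Fbxl21, for a cryptochrome ubiquitin ligase, differed by 0.048 (SE 0.07) and 0.03 (SE 0.036).

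Of the D-box factors, 0 of 4 were called, against 0.311% of all genes. Dbp, Hlf and Tef each had a positive difference at an unadjusted p below 0.05, as did 3.48% of all genes. Dbp read 0.70, 0.58, 0.84 and 0.73 at ZT07 and 1.32, 1.08, 1.17 and 1.01 at ZT11 without overlap, a difference of 0.43 (SE 0.11) at an adjusted p of 0.11. The size of this difference depends on the scaling: after quantile normalization it was 0.13, at an adjusted p of 0.9. Hlf read -0.036, -0.24, 0.022 and 0.051 at ZT07 and 0.16, 0.41, 0.29 and 0.45 at ZT11, also without overlap, at 0.38 (SE 0.085) and an adjusted p of 0.057. Tef had a difference of 0.24 (SE 0.056, adjusted p 0.077), the mean of 0.37 and 0.10 from its 2 probe sets. Nfil3, which represses D-box genes, differed by -0.075 (SE 0.074) and was below its middle in all 8 hearts. The count of called D-box factors ranged from 0 to 2 when each array was left out in turn, was 1 after quantile normalization and 2 with array weights. The median of the 4 factors, 0.31, was 0.17 after quantile normalization.

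**Figure D2:**
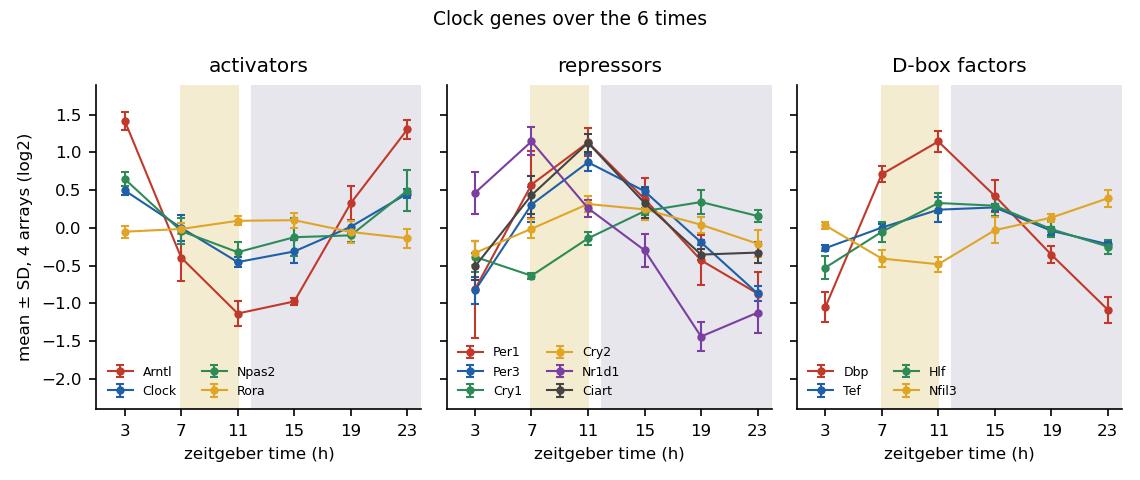
Means of 4 arrays per time with SD bars (log2, relative to each gene's median over the day) for clock activators, repressors and D-box factors at the 6 times; the yellow band marks the step from ZT07 to ZT11 and the grey area the dark phase. Arntl falls from -0.39 to -1.13 across the band, Nr1d1 from 1.15 to 0.26, and Ciart rises from 0.43 to 1.13.

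Genes outside the loop gave the largest rises. Fmo2, a flavin monooxygenase that oxidises drugs and thiols, read -0.68, -0.55, -0.58 and -0.48 at ZT07 and 0.097, 0.51, 0.35 and 0.70 at ZT11. All ZT07 hearts lay below the middle of the day and all ZT11 hearts above it, a rise of 0.98 (SE 0.10) or 1.98-fold at an adjusted p of 4.8e-05. Wee1, the kinase that holds cells back from mitosis and a long-known output of the clock, read -0.20, -0.54, -0.25 and -0.45 at ZT07 and 0.50, 0.65, 0.56 and 0.76 at ZT11. The groups stood far apart, with a rise of 0.98 (SE 0.15), 1.97-fold, at an adjusted p of 0.0034. Rhobtb1, a protein that brings substrates to a CUL3 ubiquitin ligase, read -0.12, -0.095, -0.088 and -0.14 at ZT07 and 0.50, 0.63, 0.75 and 0.92 at ZT11. The ZT07 hearts were nearly alike and the ZT11 hearts spread more widely above them, at 0.81 (SE 0.093, adjusted p 0.00011). Herpud1, a membrane protein of endoplasmic reticulum degradation, had the smallest p of all genes. It read -0.19, -0.13, -0.17 and -0.15 at ZT07 and 0.52, 0.43, 0.37 and 0.64 at ZT11, a rise of 0.65 (SE 0.053) or 1.57-fold at an adjusted p of 1.1e-06. Timp3, an inhibitor of matrix metalloproteinases that stays bound to the matrix, read -0.0071, -0.22, -0.068 and 0.062 at ZT07 and 0.57, 0.62, 0.73 and 1.02 at ZT11. Its highest value was that of ZT11 replicate 4, and it rose by 0.79 (SE 0.086, adjusted p 4.8e-05).

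Ephx1, the microsomal epoxide hydrolase, rose by 0.60 (SE 0.089) from 0.12, -0.15, -0.041 and -0.03 at ZT07 to 0.45, 0.63, 0.52 and 0.67 at ZT11. Slc43a3, a transporter of purine nucleobases, went from -0.26, -0.18, -0.19 and -0.29 to 0.29, 0.34, 0.29 and 0.48, with an adjusted p of 0.00024. Ppp1r10, a nuclear targeting subunit of protein phosphatase 1, went from -0.26, -0.12, -0.13 and -0.015 to 0.50, 0.57, 0.32 and 0.44. In each of the 3 genes every ZT11 heart lay above every ZT07 heart, and each call was kept under every alternative tried. Ifi205, an interferon-inducible gene, rose by 0.78 (SE 0.13, adjusted p 0.0039) and kept its call likewise. Xdh, the xanthine dehydrogenase of purine breakdown, rose by 0.51 (SE 0.091, adjusted p 0.0096, and 0.057 without ZT11 replicate 4). Ces1d, a carboxylesterase, rose by 0.61 (SE 0.11) at an adjusted p of 0.012, which reached 0.052, 0.061 and 0.055 without ZT07 replicate 1, ZT07 replicate 2 and ZT11 replicate 2. Slc46a3, a transporter of the lysosomal membrane, rose by 0.65 (SE 0.13, adjusted p 0.024), and its call was lost without each of 5 arrays, ZT07 replicates 2, 3 and 4 and ZT11 replicates 3 and 4, at adjusted p-values up to 0.1. Lonrf1, a ring finger protein, rose by 0.53 (SE 0.093, adjusted p 0.0078). Adh1, an alcohol dehydrogenase, rose by 0.57 (SE 0.07) as the mean of 2 probe sets that disagree, 1.13 and 0.018. In the fit of the 8 arrays alone Xdh, Slc46a3, Lonrf1 and Adh1 lost their calls, at adjusted p-values of 0.06, 0.092, 0.11 and 0.052.

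**Figure D3:**
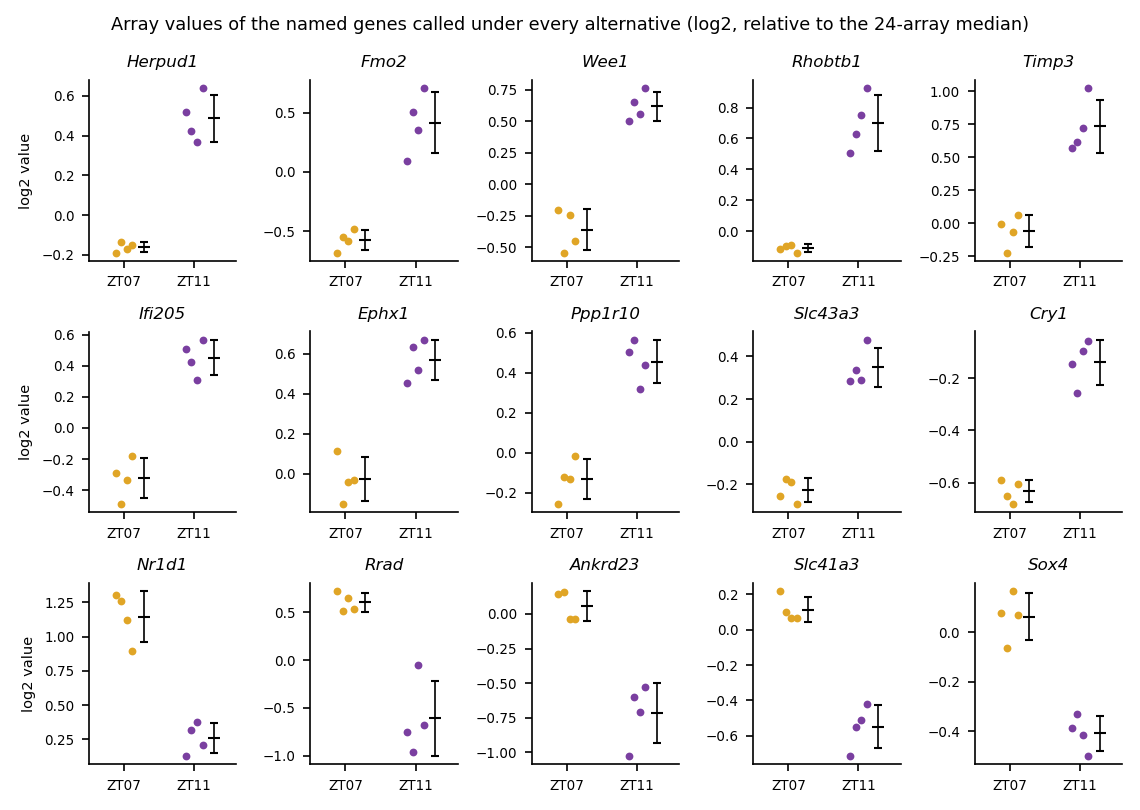
Log2 values of 15 named genes whose call held under every alternative, relative to each gene's median over the 24 arrays; points are the 4 arrays at ZT07 (yellow) and at ZT11 (purple), bars their mean and SD, and each panel has its own scale. In all 15 panels the groups do not overlap, from Cry1, below 0 in all 8 arrays, to Nr1d1, above 0 in all 8.

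The largest fall, and the largest change of all called genes, was that of Rrad, a small GTPase that restrains L-type calcium channels. It read 0.72, 0.51, 0.65 and 0.53 at ZT07 and -0.76, -0.96, -0.055 and -0.68 at ZT11. ZT11 replicate 3 stood apart from the other 3 ZT11 hearts yet below every ZT07 heart, and the fall was 1.22 (SE 0.15), or 2.32-fold, at an adjusted p of 0.00025. Ankrd23, a muscle ankyrin repeat protein that binds titin at the I-band, read 0.14, 0.16, -0.037 and -0.038 at ZT07 and -1.02, -0.60, -0.71 and -0.53 at ZT11. Every ZT11 heart was lower, by 0.77 on average (SE 0.12, 1.71-fold, adjusted p 0.003). Slc41a3, of a family of magnesium transporters, went from 0.22, 0.10, 0.069 and 0.066 to -0.71, -0.55, -0.51 and -0.42, and Sox4, a transcription factor of development, from 0.08, -0.064, 0.17 and 0.071 to -0.39, -0.33, -0.41 and -0.50. Neither gene's groups overlapped, at adjusted p-values of 0.00086 and 0.0026, and the 2 probe sets of Sox4 fell by 0.57 and 0.37. Rcan1, an inhibitor of calcineurin, read 0.13, 0.011, -0.21 and -0.46 at ZT07 and -0.90, -0.67, -0.69 and -0.58 at ZT11. Its ZT07 hearts spread widely and replicate 4 came near to ZT11, with a difference of -0.57 (SE 0.10) at an adjusted p of 0.0096. In the fit of the 8 arrays alone the call of Rcan1 was lost (adjusted p 0.25).

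Other falls were smaller or rested on fewer arrays. Trp53i11, a p53-induced gene, fell by 0.67 (SE 0.14, adjusted p 0.034), with the call lost without each of 5 arrays, ZT07 replicates 1 to 3 and ZT11 replicates 1 and 2, at adjusted p-values up to 0.13. Lingo3, a leucine-rich repeat membrane protein, fell by 0.49 (adjusted p 0.01, and 0.053 without ZT07 replicate 1). Ccn1, a matrix-associated signalling protein, fell by 0.49 (SE 0.11) and lost its call without any 1 of 17 arrays, at adjusted p-values up to 0.15. Prox1, the transcription factor of lymphatic vessels that cardiac muscle also uses, fell by 0.36 (SE 0.076) and lost its call without any 1 of 12 arrays, at up to 0.15. Zfp667 and Klhdc8a fell by 0.39 and 0.44, and each lost its call without any 1 of 5 arrays, at adjusted p-values up to 0.1 and 0.13. Cavin4, a muscle protein of caveolae, and Reep5, which shapes the sarcoplasmic reticulum, fell by 0.28 and 0.20, with calls lost without any 1 of 8 and 10 arrays, at up to 0.14 and 0.15. In the fit of the 8 arrays alone Zfp667 kept its call, and the other 7 of these genes lost theirs, at adjusted p-values from 0.057 for Lingo3 to 0.36 for Reep5.

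The list of glucocorticoid-responsive genes, written with earlier results of these data known, had the most members called higher of the pathway lists. Of its 24 members 4 were called higher and 0 lower, against 0.207% and 0.104% of all genes. By share the clock repressors had more, 3 of 11. The median of the 24 genes was 0.24 against -0.002 over all genes, and 22 of them had a positive difference. At an unadjusted p below 0.05, 14 were higher and 1, Fkbp4, lower, against 3.48% and 3.66% of all genes. Tsc22d3 (GILZ, an anti-inflammatory leucine zipper protein) read -0.21, -0.17, -0.14 and -0.20 at ZT07 and 0.15, 0.45, 0.21 and 0.55 at ZT11. All ZT11 hearts were higher, with replicates 2 and 4 above 1 and 3, at 0.52 (SE 0.085) and an adjusted p of 0.0042. Fkbp5, a co-chaperone that damps the glucocorticoid receptor, read -0.067, -0.085, -0.17 and -0.24 at ZT07 and 0.15, 0.43, 0.24 and 0.57 at ZT11. Here too ZT11 replicates 2 and 4 were the highest, at 0.49 (SE 0.092, adjusted p 0.015). Its call was lost without ZT07 replicate 4 (0.052), ZT11 replicate 2 (0.066) or ZT11 replicate 4 (0.082). Sult1a1, a phenol sulfotransferase, read -0.14, 0.047, 0.0018 and -0.15 at ZT07 and 0.37, 0.41, 0.34 and 0.80 at ZT11, with replicate 4 far above the rest, at 0.54 (SE 0.093, adjusted p 0.0074). Zbtb16, a zinc finger repressor that the hormone strongly induces, had the largest rise of all called genes, and its hearts spread widely at ZT07. It read 0.22, 0.66, -0.76 and -0.56 at ZT07 and 1.01, 1.00, 0.70 and 1.16 at ZT11, so ZT07 replicate 2 came close to ZT11 replicate 3, and the rise was 1.08 (SE 0.23) or 2.11-fold at an adjusted p of 0.043.

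The call of Zbtb16 was lost without any 1 of 17 arrays, at adjusted p-values up to 0.16, and after quantile normalization (0.25). Mt2, a metallothionein, had a difference of 0.98 (SE 0.26) that did not pass (adjusted p 0.15): it read -0.26, 0.59, -0.10 and -0.44 at ZT07 and 1.47, 0.54, 0.60 and 1.11 at ZT11, and ZT07 replicate 2 overlapped with ZT11. Pik3r1, a regulatory subunit of PI3 kinase, and Klf15, a factor of heart metabolism, had differences of 0.44 (SE 0.098, adjusted p 0.057) and 0.42 (SE 0.11, adjusted p 0.12). The count of 4 was between 2 and 5 when each array was left out in turn, 2 without the 3 widest arrays (Fkbp5 at 0.064 and Zbtb16 at 0.15 lost their calls) and 0 in the fit of the 8 arrays alone. There the adjusted p was 0.096 for Tsc22d3, 0.15 for Fkbp5, 0.19 for Sult1a1 and 0.36 for Zbtb16, and 13 members were higher at an unadjusted p below 0.05. The list's median ranged from 0.16 to 0.32 over the fits without 1 array. Per1, Tsc22d3, Klf9, Klf15, Ddit4 and Cdkn1a belong to clock lists as well, and corticosterone was not measured.

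Clock output genes shared by many tissues had 3 of 22 measured members called higher and 0 lower, against 0.207% and 0.104% of all genes. The list's median was 0.14, and the 3 called members were Wee1, Tsc22d3 and Usp2. Usp2, a ubiquitin protease that follows the clock in many organs, read 0.048, 0.072, -0.0093 and 0.031 at ZT07 and 0.44, 0.42, 0.37 and 0.48 at ZT11, tight groups that did not overlap. It rose by 0.39 (SE 0.071, adjusted p 0.011, and 0.057 without ZT11 replicate 4).

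Of 29 measured genes of folding and stress in the endoplasmic reticulum, Herpud1 was the single one called higher. Of all genes, 0.207% were called higher and 0.104% lower. Called lower in this list were Hyou1, a chaperone of the Hsp70 kind, and Ppp1r15b, which brings a phosphatase to the translation factor eIF2α. At an unadjusted p below 0.05, 2 members were higher and 6 lower, against 3.48% and 3.66% of all genes. Of the 29, 6 had a positive difference, and the median was -0.06. Hspa5, the main chaperone BiP, differed by -0.23 (SE 0.061, adjusted p 0.15). Hyou1 fell by 0.38 (adjusted p 0.046) and Ppp1r15b by 0.19 (adjusted p 0.046), both close to the threshold. These calls were lost without any 1 of 17 and 16 arrays, at adjusted p-values up to 0.16 and 0.18, and also without the 3 widest arrays, with the replicate block and in the fit of the 8 arrays alone.

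Vegfa, the main growth factor of blood vessels, and Kdr, its receptor VEGFR2 on endothelium, both fell. Of 29 vascular ligands and receptors, 2 were called lower and 0 higher, against 0.104% and 0.207% of all genes. The list's median was -0.045. Vegfa read 0.052, -0.11, -0.13 and 0.10 at ZT07 and -0.33, -0.39, -0.24 and -0.35 at ZT11. All ZT11 hearts were lower, at -0.31 (SE 0.052) and an adjusted p of 0.0051. Kdr read 0.095, 0.022, 0.041 and 0.32 at ZT07 and -0.31, -0.36, -0.21 and -0.21 at ZT11, without overlap and with ZT07 replicate 4 the highest, at -0.39 (SE 0.075) and an adjusted p of 0.019. Its call was lost without ZT07 replicate 4 (0.065), ZT11 replicate 1 (0.057) or ZT11 replicate 2 (0.083), and without the 3 widest arrays (0.065). Both calls were lost in the fit of the 8 arrays alone, at adjusted p-values of 0.2 for Vegfa and 0.15 for Kdr. The other 11 measured endothelial markers were not called, and the mean of all 12 ranged from -0.092 to 0.074 at ZT07 and from -0.12 to 0.10 at ZT11; the part of endothelial cell number in the change of Kdr was not tested. Aplnr, the apelin receptor gene, and Pgf, a ligand related to Vegfa, differed by -0.38 (SE 0.093, adjusted p 0.093) and 0.28 (SE 0.081, adjusted p 0.24).

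Timp3 was the single called member of 29 collagen and matrix genes, whose median was -0.061. Its relative Timp4, abundant in heart muscle, had a difference of 0.57 (SE 0.13, adjusted p 0.072). At an unadjusted p below 0.05 stood 2 members that were higher at ZT11, against 3.48% of all genes, and 8 that were lower, against 3.66%. They include Col4a1 and Col4a2, chains of basement membrane collagen chosen after their values were seen, at -0.39 and -0.34, Col1a1 and Col3a1, fibrillar collagens, at -0.25 and -0.22, and the protease gene Mmp14 at -0.33 (SE 0.079, adjusted p 0.079). No collagen gene passed the adjusted test.

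Of 32 genes of NAD, glutathione and redox defence, 2 were called higher, Hmox1 and Nfe2l2, and 0 lower, against 0.207% and 0.104% of all genes. The list's median was 0.045. Hmox1, the heme oxygenase that NRF2 induces, read -0.24, -0.25, -0.14 and -0.32 at ZT07 and 0.057, 0.23, 0.41 and 0.21 at ZT11. Each ZT07 heart was below its middle and each ZT11 heart above it, at 0.46 (SE 0.07) and an adjusted p of 0.0026. Nfe2l2, which encodes NRF2 itself, read -0.076, -0.10, -0.13 and -0.32 at ZT07 and 0.10, 0.17, 0.12 and 0.21 at ZT11, at 0.31 (SE 0.059) and an adjusted p of 0.019. Its groups did not overlap, and the call was lost without ZT07 replicate 4 (0.062), ZT11 replicate 2 (0.066) or ZT11 replicate 4 (0.082), and without the 3 widest arrays (0.067). Both calls were lost in the fit of the 8 arrays alone, at 0.083 for Hmox1 and 0.18 for Nfe2l2. Gsta3, a glutathione transferase gene that NRF2 also induces, differed by 0.28 (SE 0.086, adjusted p 0.29) and did not pass. Nampt, the rate-limiting enzyme of NAD salvage, differed by 0.26 (SE 0.078, adjusted p 0.28).

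Among the lists of the working muscle, Ankrd23 was the called member of 26 Z-disc and stretch genes, and 0 of 21 thick and thin filament genes, 0 of 24 calcium cycling genes and 0 of 21 channel and connexin genes were called, against 0.311% of all genes, a share at which lists of this size hold few calls or none. Their medians lay between -0.015 and 0.0032. Gja1, the main connexin of ventricular muscle, had a difference of -0.36 (SE 0.089, adjusted p 0.099). Among 22 cardiac stress and calcineurin genes Rcan1 was called lower and Npr2, a natriuretic peptide receptor gene, higher at 0.25 (SE 0.053, adjusted p 0.042; the call was lost without any 1 of 14 arrays, at up to 0.15, without the 3 widest arrays, 0.13, and in the 8 arrays alone, 0.19). Nppb, which encodes the natriuretic peptide BNP, read 0.18, -0.039, 0.039 and -0.51 at ZT07 and -1.40, -0.77, -0.58 and -0.97 at ZT11. The groups did not overlap, and ZT07 replicate 4 and ZT11 replicate 1 were the lowest of their groups. Its spread left a difference of -0.85 (SE 0.22) at an adjusted p of 0.12.

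Of 35 genes of the fuel switch, 0 were called, against 0.311% of all genes. At an unadjusted p below 0.05, 5 were higher and 5 lower, against 3.48% and 3.66% of all genes. Txnip, which restrains glucose uptake, had a difference of -0.68 (SE 0.22, adjusted p 0.34). Pdk4, the kinase that shuts off pyruvate dehydrogenase, chosen after its values were seen, had -0.62 (SE 0.23, adjusted p 0.5). Dgat2, which makes triglyceride, was the called member of 24 lipid droplet genes, at 0.44 (SE 0.081, adjusted p 0.012, and 0.073 without ZT11 replicate 4). Lpin1, the phosphatidate phosphatase that precedes it, had a difference of -0.29 (SE 0.066, adjusted p 0.059). In sterol synthesis Fdft1, squalene synthase, was called higher and Hmgcs1, the enzyme that makes HMG-CoA, lower, at 0.32 (SE 0.067) and -0.29 (SE 0.052). Their adjusted p-values were 0.042 and 0.01; the call of Fdft1 was lost without any 1 of 17 arrays (up to 0.13), and that of Hmgcs1 without ZT07 replicate 2 (0.057) or ZT11 replicate 4 (0.054). Eif4ebp1, a brake on cap-dependent translation, was the called member of 30 insulin and nutrient genes at 0.36 (SE 0.07, adjusted p 0.022), and its call was lost without any 1 of 5 arrays, at adjusted p-values up to 0.1. The calls of Fdft1, Hmgcs1 and Eif4ebp1 were lost in the fit of the 8 arrays alone (0.26, 0.12 and 0.18), and that of Fdft1 without the 3 widest arrays (0.1).

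Lists with 0 called genes were glycolysis (21 measured), glycogen (16), autophagy (26), cytosolic heat shock (27), immediate early genes (25), oxygen sensing (16), the respiratory chain (46), cytosolic ribosomal proteins (39) and ribosome biogenesis (33). At the share of 0.311% of all genes, lists of this size hold few calls or none. The medians of these lists ranged from -0.033 to 0.046. At an unadjusted p below 0.05 they held between 0 and 2 members higher and between 0 and 2 lower each, against 3.48% and 3.66% of all genes. Of the remaining lists, cold-inducible and splicing genes held Ppp1r10 as the called member of 30. The 30 cell cycle genes held Wee1 and Trp53i11 in opposite directions, and the 16 genes of metal handling held Hmox1 and Slc41a3, also in opposite directions.

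**Figure D4:**
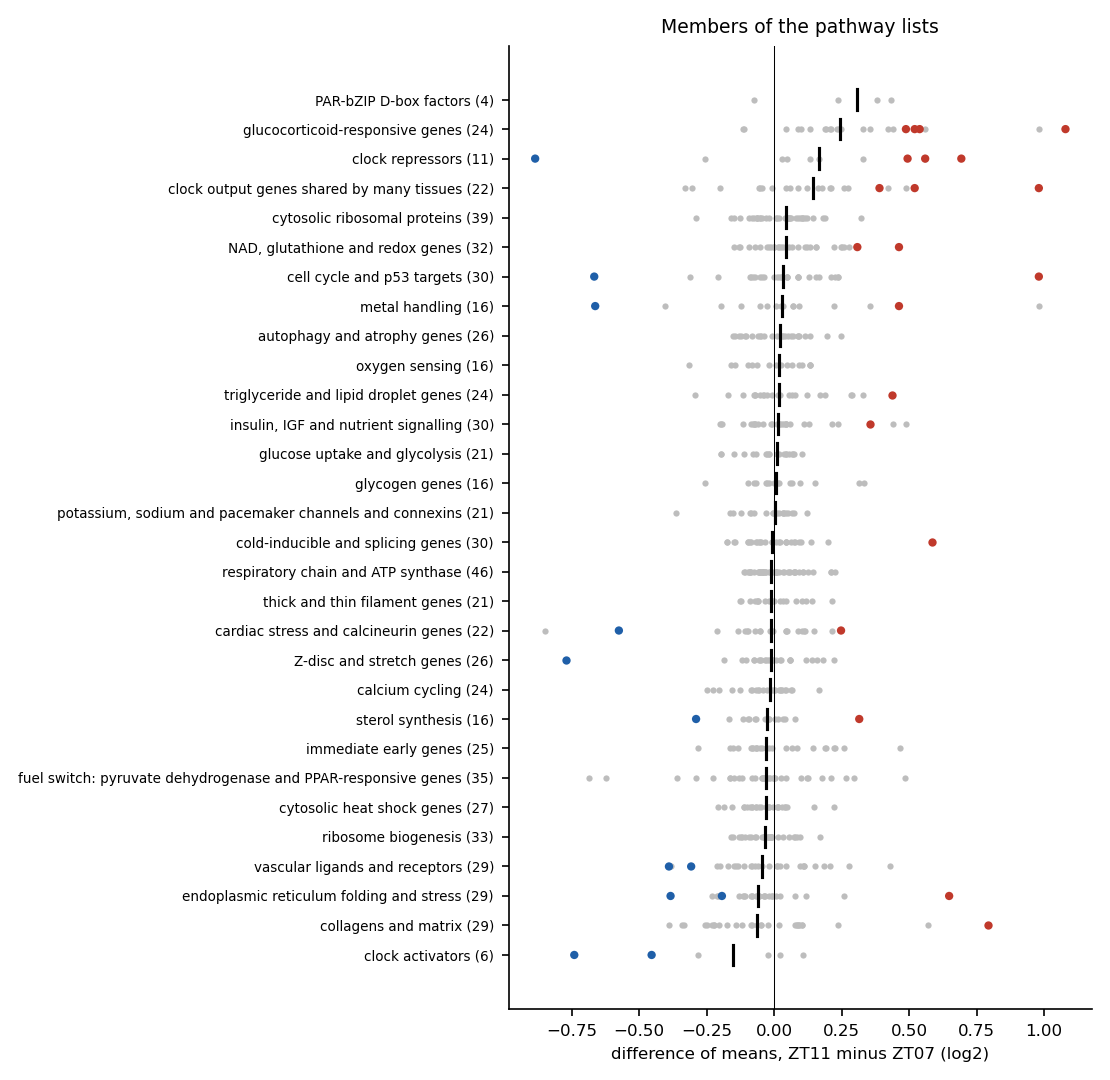
Differences of means, ZT11 minus ZT07 (log2), of every measured member of the 30 pathway lists, with the number measured in brackets; red points were called higher, blue points lower, grey points were not called and black bars are list medians. The D-box factors and the glucocorticoid-responsive genes have the highest medians, 0.31 and 0.24 (0.17 and 0.24 after quantile normalization, which turns their order), and the clock activators the lowest, -0.15.

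Few markers of heart cell types were called, against 0.311% of all genes, a share at which lists of this size hold few calls or none. Of 12 ventricular muscle markers 0 were called, with a median of -0.011, and their mean ranged from -0.015 to 0.079 at ZT07 and from -0.023 to 0.038 at ZT11. Centred values give no level, so the presence of these markers in the tissue could not be read from them. Atrial muscle markers had a median of 0.06, with 8 of 10 positive and 0 called, and their mean ranged from -0.16 to -0.093 at ZT07 and from -0.15 to 0.052 at ZT11. Fibroblast and endothelial markers had medians of 0.0039 and 0.0040, and smooth muscle, neutrophil, lymphocyte, platelet, adipocyte, skeletal muscle, lung, thymus, nerve and mesothelium markers medians between -0.034 and 0.018, with 0 called in each of the latter. The red cell list had 1 measured marker, which was not called.

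Macrophage markers had the highest median of the cell type lists, 0.10, with 1 of 12 called, Lyve1. Lyve1, the hyaluronan receptor of lymphatic vessels and of a class of resident macrophages, read -0.36, -0.51, -0.57 and -0.80 at ZT07 and 0.11, 0.057, -0.22 and 0.032 at ZT11. All ZT11 hearts were higher, with replicate 3 the lowest of them, at 0.55 (SE 0.10) and an adjusted p of 0.01; in the fit of the 8 arrays alone the call was lost (0.15). Cd163, another marker of resident macrophages, differed by 0.30 (SE 0.10, adjusted p 0.38), and Cx3cr1, a chemokine receptor gene, by -0.33 (SE 0.13, adjusted p 0.5). The mean of the 12 markers ranged from -0.28 to -0.057 at ZT07 and from -0.083 to 0.022 at ZT11, and the lowest value was that of ZT07 replicate 4. The part of macrophage number in the rise of Lyve1 was not tested.

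Whether genes turn at ZT11 was asked with the step that follows it, ZT15 minus ZT11, less the step to ZT11. A negative value is a high point at ZT11 relative to the line from ZT07 to ZT15, and a positive value a low point. A rise that only slows after ZT11 also gives a negative value. The test called 19 genes (0.0857%), 15 with a high point and 4 with a low point, and 1366 at an unadjusted p below 0.05. After quantile normalization it called 32, 15 with a high and 17 with a low point, so this split depends on the scaling. The count was 8, 10 and 10 without ZT11 replicates 4, 3 and 2 and 37 without ZT07 replicate 4. Ciart had the largest high point: its means were 0.43 ± 0.25 (SD, n = 4) at ZT07, 1.13 ± 0.12 at ZT11 and 0.33 ± 0.20 at ZT15, a turn of -1.49 (SE 0.19) at an adjusted p of 0.0029. Ppp1r10 had its highest mean at ZT11, 0.46, while those of the other 5 times lay between -0.14 and 0.053, and had a turn of -1.18 (SE 0.16, adjusted p 0.0032). Dbp, Rhobtb1, Per3 and Adh1 also had high points, at -1.15, -1.01, -0.94 and -0.85, with adjusted p-values of 0.0087, 0.0087, 0.014 and 0.0038.

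The low points at ZT11 were Vegfa, Hspa1a, Zfp36l1 and Atxn2. Vegfa was lower than at either neighbouring time, with means of -0.021 ± 0.12 (SD, n = 4), -0.33 ± 0.064 and -0.031 ± 0.073, and turned by 0.60 (SE 0.089) at an adjusted p of 0.0038. For Hspa1a, an inducible heat shock protein gene, the larger of the steps was the later one: its difference from ZT07 to ZT11 was -0.18 and did not pass, and that from ZT11 to ZT15 was 0.92 (adjusted p 0.00077). Zfp36l1, which destabilises mRNA, and Atxn2, an RNA-binding protein gene, had the same order of steps, -0.14 and then 0.45, and -0.13 and then 0.36. From ZT11 to ZT15, 45 genes (0.203%) were called in all.

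A turn at ZT07, the late light step less the step from ZT03 to ZT07, was called for 3 genes (0.0135%), and 1089 had an unadjusted p below 0.05. The early step itself called 45 genes (0.203%). Nr1d1 rose early by 0.68 (SE 0.14) and then fell, a turn of -1.57 (SE 0.25) at an adjusted p of 0.021. Dbp rose early by 1.76 (SE 0.11) and had a late difference of 0.43 that did not pass, a turn of -1.33 (SE 0.19, adjusted p 0.01). Fmo2 had differences of -0.15 early and 0.98 late, a turn of 1.14 (SE 0.18, adjusted p 0.021). The count was 0 without ZT07 replicate 1 or ZT07 replicate 3, with 1224 and 1067 at an unadjusted p below 0.05, and 1 without ZT03 replicate 3, ZT07 replicate 2 or ZT11 replicate 2. It was 5 without ZT03 replicate 4 and 7 without ZT11 replicate 3.

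Placed in the course of the day, the 46 genes that rose had their highest mean at ZT11 in 33 cases and at ZT15 in 12, and their lowest at ZT03 in 23 and at ZT07 in 14. The 23 that fell were lowest at ZT11 in 14 cases and highest at ZT03 in 15. The call of the step favours such extremes at ZT07 and ZT11, so these counts describe the genes and carry no test. Rhobtb1 and Herpud1 were lowest at ZT03 (-0.67 and -0.54), and Wee1 likewise (-0.62). Cry1 had its highest mean at ZT19, 0.34, and Lyve1 at ZT15, 0.55. Slc41a3 had its lowest mean at ZT15, -0.91.

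The step of the same length 12 h later, ZT19 to ZT23 at the end of the dark phase, shares no array with the step from ZT07 to ZT11. It called 15 genes (0.0676%). Of these, 8 were among the 69, which is 53.3% of the 15, against 0.311% of all genes called in the light step. The 8 are 11.6% of the 69, against 0.0676% of all genes called in the dark step. Both steps took each gene's spread from the same fit of 24 arrays, so the 2 sets of calls are not independent. The 8 are Arntl, Clock, Herpud1, Lonrf1, Per3, Rhobtb1, Slc41a3 and Slc44a2, a choline transporter-like gene chosen after its values were seen. Each of the 8 went in opposite directions in the 2 steps. Of all 69 genes, 63 (91.3%) had opposite signs, 44 of the 46 that rose and 19 of the 23 that fell, against 51.8% of all genes. The median of the dark step was -0.26 over the genes that rose and 0.17 over those that fell. The 6 with the same sign were Ciart, Sox4, Reep5, Ppp1r15b, Lage3 (chosen after its values were seen) and 1 predicted gene, and none of these 6 passed in the dark step.

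The difference between the 2 steps was called for 128 genes (0.577%), 93 with a positive value, higher in the late light step, and 35 with a negative one. Arntl fell by 0.74 in the light step and rose by 0.98 (SE 0.12) in the dark step (adjusted p 0.00073), a difference of -1.72 (SE 0.17) at an adjusted p of 9.8e-06. Slc41a3 behaved alike, with -0.66 and 0.72 and a difference of -1.38 (adjusted p 3.8e-06). Per3 and Rhobtb1 rose in the light step and fell by 0.68 and 0.65 in the dark step. Fmo2, Wee1 and Mt2 had positive differences between the steps of 1.47 (SE 0.15), 1.57 (SE 0.22) and 1.92 (SE 0.37), with adjusted p-values of 9.8e-06, 0.00052 and 0.012. Rrad, Nr1d1 and Trp53i11 had negative ones of -1.46 (SE 0.22), -1.20 (SE 0.20) and -1.08 (SE 0.19), although their own dark steps did not pass. Dbp, whose late light step did not pass, differed between the steps by 1.16 (SE 0.15, adjusted p 0.00024), and fell by 0.73 in the dark step. Spon2, a matrix protein gene, differed by -1.14 (SE 0.15, adjusted p 0.00024) and rose by 0.91 in the dark step.

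**Figure D5:**
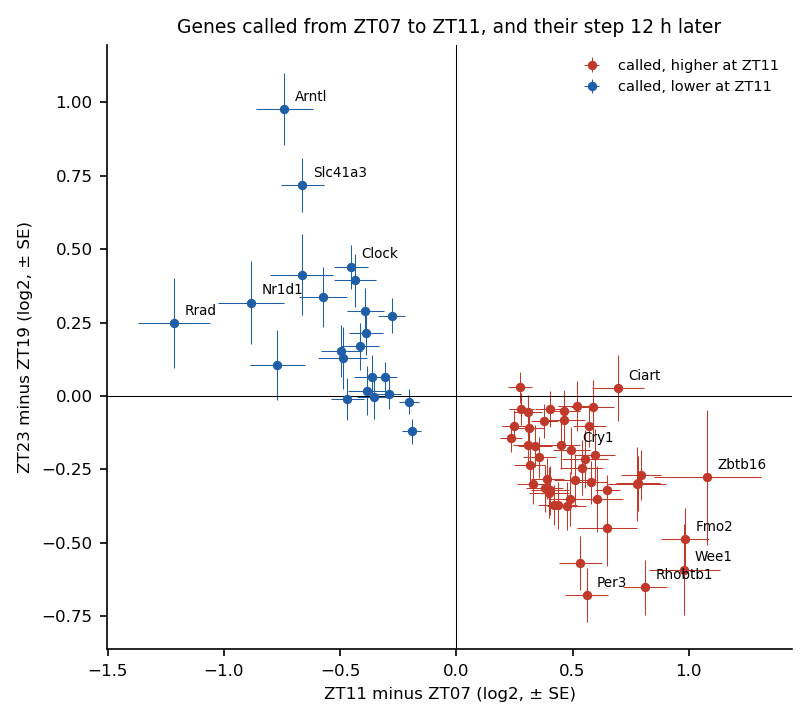
Each point is 1 of the 69 genes called from ZT07 to ZT11, with that difference (log2, bars are SE) across and the difference ZT23 minus ZT19 upward; red genes were called higher at ZT11 and blue genes lower. Of the 46 red points 44 lie below 0 and of the 23 blue points 19 lie above 0, with Arntl highest at 0.98 and Per3 lowest at -0.68.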

How the data were processed

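Total RNA of 24 hearts was hybridised to Affymetrix arrays, per the labels' protocols. The authors deposited log2 values (base 2 and higher meaning more RNA are assumed here) for 34351 probe sets. Each probe set is centred on its median over the 24 arrays, so the values give no level and no signal over background. How the authors normalized and summarised them is not given in the sources used here. GEO's platform annotation names 1 gene for 23521 probe sets, several for 1814 and none for 9016. Probe sets of a gene were averaged, which gave 22180 genes.

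One limma model (version 3.58.1, R 4.3.3; lmFit and eBayes) was fitted over all 24 arrays by time, with 18 residual degrees of freedom, and p-values were adjusted by Benjamini-Hochberg over all genes. A gene was called at an adjusted p below 0.05; folds are 2 to the power of the difference. The steps were tested on simulated data. Named were all clock genes, the 20 largest rises and falls, up to 4 genes of smallest p per list with its called members, and the 6 largest values each way of the other contrasts; predicted genes were not named. Lists are described by counts and medians, with no test. The time groups come from the sample titles. The comparisons were chosen and the lists written with earlier results of these data known. The p-values rest on the spread between hearts of the same time, pooled over all times and moderated over all genes. Alternatives were the 8 arrays alone, a replicate block, array weights, a robust prior, quantile normalization, protein-coding genes, single probe sets, leaving out each array or the 3 of widest spread, and a threshold of 0.01.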

Additional observations from a re-analysis of the deposited data

Results flagged for a closer look

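Single hearts stood apart from the other 3 of their time in 3 of the 160 groups of 4 values tested over 80 genes, by Dixon's criterion; chance alone marks about 1 group in 20. Sult1a1 read 0.80 in ZT11 replicate 4, Mid1ip1 0.21 in ZT11 replicate 4 and Mylip 0.058 in ZT07 replicate 4. The SD over all probe sets of ZT07 replicate 4, 0.153, also stood apart from those of its group.

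The step to ZT11 differed from the step after it, by limma's test of the difference, in 19 genes. The largest values were -1.49 for Ciart, -1.18 for Ppp1r10, -1.15 for Dbp, -1.01 for Rhobtb1, -0.94 for Per3 and -0.85 for Adh1 on the side of a high point at ZT11. On the side of a low point they were 1.10 for Hspa1a, 0.60 for Vegfa, 0.58 for Zfp36l1 and 0.49 for Atxn2. The step differed from the one before it in 3 genes, with -1.57 for Nr1d1, -1.33 for Dbp and 1.14 for Fmo2.

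The late light step differed from the late dark step in 128 genes. Mt2, a metallothionein gene that was called in neither step, had the largest positive value, 1.92, followed by Wee1 with 1.57, Fmo2 with 1.47, Rhobtb1 with 1.46, Per3 with 1.24 and Dbp with 1.16. The largest negative values were -1.72 for Arntl, -1.46 for Rrad, -1.38 for Slc41a3, -1.20 for Nr1d1, -1.14 for Spon2 and -1.08 for Trp53i11.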

How the results depend on the processing

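The main count of 69 genes became 29 in the 8 arrays alone, 106 with array weights and 36 at an adjusted p below 0.01, and ranged from 40 to 82 when each array was left out. The turn at ZT11 (19 genes) became 4 with the arrays of its own times, 33 with array weights, 32 after quantile normalization, 36 without the 3 widest arrays and 9 at 0.01, and ranged from 8 to 37. The turn at ZT07 (3 genes) became 0 with its own arrays (1265 at an unadjusted p below 0.05 in limma), 1 without the widest arrays and 1 at 0.01, and ranged from 0 to 7. The difference from the dark step (128 genes) became 59 at 0.01 and ranged from 95 to 154. A stricter threshold leaves fewer calls by construction. Fewer arrays did not always give fewer calls: the count of 69 became 82 without ZT15 replicate 1 and 99 without the 3 widest arrays. Apart from the threshold, the cause of these moves was not tested. Mid1ip1 reversed in 1 of its 3 probe sets (-0.083). The main fit did not treat replicate numbers as pairs. With the mean of each time taken off, same-numbered ZT07 and ZT11 arrays correlated over all probe sets at -0.14, -0.067, -0.012 and 0.072. Of the ZT07 arrays, 1 of 4 matched its own number best. So few pairs cannot settle whether the numbers carry a pairing. The replicate block gave 61, 20, 4 and 111 genes. Light, clock and batch cannot be told apart in a single day, and 4 hearts a time limit the precision; levels and signal over background could not be read from centred values.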

Other observations

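The 4 hearts of ZT07 differed among themselves in several clock and hormone genes. Replicates 3 and 4 had the higher values of Per1 (0.77 and 1.10, against 0.19 and 0.23 in replicates 1 and 2) and the lower values of Arntl, Npas2 and Rcan1. In Arntl they read -0.57 and -0.75, against -0.10 and -0.16. Zbtb16 split the same hearts with -0.76 and -0.56 against 0.22 and 0.66. Per1 and Arntl of replicates 3 and 4 thus lay nearer to the ZT11 hearts, and Zbtb16 farther from them. Other clock and hormone genes, among them Per3, Cry1 and Tsc22d3, did not split the hearts in this way. The genes named here were picked after their values were seen, and the pattern was not tested.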
